A study of Mus musculus with 6 samples.

Results

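Sbk2 and Sbk3, a pair of neighbouring kinase genes, were examined in skeletal muscle RNA of mice in which the vitamin D receptor gene Vdr had been targeted. They are 2 of the 43346 genes listed in the count table, matched by gene name, and both passed the low-count filter that left 15583 genes. The pair was selected on measured values of these same libraries, with the counts of the 2 groups and the levels beside the slow-fibre gene Myh7 in view. The values of that contrast are therefore given as a description, and no test of it supports anything here. RNA was sequenced from gastrocnemius, a mostly fast-twitch calf muscle, of male mice aged 6 months, in 6 libraries. All carried Vdrfl/fl, alleles with loxP sites around Vdr exon 3, together with actin iCre, the Tg(ACTA1-cre/Esr1*)2Kesr transgene. This transgene expresses a tamoxifen-activated Cre recombinase in skeletal muscle fibres. The knockout group was 3 libraries from such mice injected for 5 days with tamoxifen at 100 mg/kg in 10% ethanol in corn oil, and the vehicle group was 3 libraries from mice of the same genotype given the ethanol and corn oil alone. All ate a diet holding calcium at 0.81% and vitamin D3 at 3.4 IU/g, and muscle was taken after strength and glucose tests made 10 days from the last injection. The titles number the samples separately without saying outright that each is another animal, so p-values measure only the spread between these samples, which may be technical. Tamoxifen, Cre activity and loss of Vdr came together in the knockout group and cannot be told apart here, because tamoxifen-treated mice without Cre were not analysed here.

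The SBK genes encode serine/threonine kinases named for a region that binds SH3 domains. Sbk1, the founding member, was first described in rat brain. Sbk2 is known in mouse as a kinase of atrial heart muscle that is needed for ordered sarcomeres. Less is known of Sbk3, and the substrates of the family in skeletal muscle are poorly described. Myh7, the myosin heavy chain of slow-twitch fibres and of the heart ventricle, was set beside both genes in every library as a measure of slow-fibre RNA. In whole muscle, a larger share of expressing fibres and more RNA per fibre cannot be told apart.

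Both genes lie on the minus strand of chromosome 7 in mm10, Sbk2 (ENSMUSG00000030433) from 4956134 to 4964390 and Sbk3 (ENSMUSG00000085272) from 4965260 to 4971168, with 869 bases between them. Sbk3 therefore lies upstream of Sbk2 in the direction of transcription. Sbk1 (ENSMUSG00000042978) lies far away on the same chromosome, on the plus strand from 126272619 to 126294999. In GENCODE models of the same build the coding sequences were 1083 bases for Sbk3, 1086 for Sbk2 and 1251 for Sbk1. Sbk2 and Sbk3 were identical at 586 of 994 aligned coding bases (59.0%), Sbk2 and Sbk1 at 611 of 1005 (60.8%) and Sbk3 and Sbk1 at 612 of 1043 (58.7%). The neighbouring genes were thus about as far from each other in coding sequence as from Sbk1. No stretch of 25 bases was shared by the annotated transcripts of any 2 of the 3 genes. The longest run common to the annotated transcripts of Sbk3 and Sbk2 is shown because it bears on whether reads of one could match the other. Whether any reads were counted for the wrong gene was not tested. The run has 14 bases and lies in exon 4, the last exon of both, at chr7:4967767-4967780 in Sbk3 and chr7:4957489-4957502 in Sbk2.
Shared run: acactgcccctgag

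The 250 bases before the RefSeq start of each gene (GRCm38.p6, minus strand, chr7:4970962-4971211 for Sbk3 and chr7:4964407-4964656 for Sbk2) are shown because the genes are adjacent and differ widely in level. Capitals mark the only match found, an E-box (CANNTG), the element bound by myogenic and other helix-loop-helix factors.
Sbk3: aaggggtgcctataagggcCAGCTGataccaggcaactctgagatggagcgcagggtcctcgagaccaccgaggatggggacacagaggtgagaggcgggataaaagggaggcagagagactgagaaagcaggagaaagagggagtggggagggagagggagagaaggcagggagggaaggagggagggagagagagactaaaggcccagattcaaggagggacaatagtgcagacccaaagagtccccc
Sbk2: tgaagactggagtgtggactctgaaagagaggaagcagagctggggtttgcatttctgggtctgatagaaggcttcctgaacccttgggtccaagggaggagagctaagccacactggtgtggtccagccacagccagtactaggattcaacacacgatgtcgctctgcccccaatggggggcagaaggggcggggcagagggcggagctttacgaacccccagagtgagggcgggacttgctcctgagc
The E-box match in Sbk3 began 231 bases before the RefSeq start, and Sbk2 had none. E-boxes were matched in 66.2% of 32841 windows of the same length. On the minus strand the counted Sbk3 gene starts at base 4971168, inside the stretch printed for it. Most of that stretch therefore lies within the counted gene, and the E-box lies before this other start. The other motifs searched on both strands had no match in either window. They were the MEF2 site and the CArG box, present in 2.92% and 1.47% of all windows, the MCAT site CATTCC in 12.6%, the nuclear receptor element AGGTCA in 14.0% and TATAAA in 12.4%. The direct repeat of that element bound by the vitamin D receptor, which overlaps it, was in 0.0061% of windows and the palindromic estrogen response element in 0.0639%. G and C made up 58.4% of the Sbk3 stretch and 58.8% of the Sbk2 stretch, against a median of 52.4% over all windows. The absence of a match says only that these letters are not in this window.

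The 6 libraries held 30486874 to 39909535 counted reads. Knockout replicate 2 had the fewest. Vdr itself had 27 to 52 reads in the knockout libraries and 46 to 61 in the vehicle libraries, and a whole-gene count is only a weak check of the loss of 1 exon. Fast-twitch genes dominated every library, with a summed FPKM (reads scaled to gene length and library total) of 78230.5 to 126913 in knockout and 113150 to 146228 in vehicle libraries. The summed FPKM of 15 slow-twitch genes ran from 2564 to 17245 in knockout and from 672 to 4388 in vehicle libraries. Slow-fibre RNA thus differed many-fold between libraries of each group. In the edgeR quasi-likelihood fit, 0 of 15583 genes (0%) had a Benjamini-Hochberg adjusted p below 0.05, and 1159 (7.44%) had an unadjusted p below 0.05, of which 626 (4.02%) were higher and 533 (3.42%) lower in knockout. DESeq2 called 109 genes.

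Sbk3 was low in vehicle muscle and higher in all 3 knockout libraries. It had 613, 2623 and 947 reads in knockout replicates 1, 2 and 3, against 116, 61 and 115 in the vehicle replicates. Scaled for library size with TMM factors, these were 17.8, 75.9 and 25.3 CPM, counts scaled to a common library total, in knockout libraries, against 3.59, 1.67 and 3.00 CPM in vehicle libraries. The groups did not overlap, as in 12.3% of all genes tested (5.83% with knockout higher), and the lowest knockout library stood 4.96-fold above the highest vehicle library. Knockout replicate 2 was 4.26-fold above the lowest of its own group, so the mean of 39.7 ± 31.6 CPM in knockout had a wide spread, against 2.75 ± 0.983 CPM in vehicle (SD, n = 3 each). The edgeR log2 fold change was 3.85 (SE 0.59), a 14.4-fold difference and the third highest estimate of all genes tested. Its edgeR adjusted p was 0.225, short of the threshold. Without knockout replicate 2 the estimate was 2.97 (SE 0.31), 7.83-fold, with an edgeR adjusted p of 0.0162. Without knockout replicate 1 it was 4.19 (SE 0.50; edgeR adjusted p = 0.0364), and in the fits without any of the other 4 libraries it did not pass. DESeq2 on all 6 libraries gave 3.83 (adjusted p = 2.3e-12).

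Sbk2 was far more abundant and nearly even across the libraries. It had 6790, 5457 and 6869 reads in the knockout replicates, against 4488, 4183 and 5664 in the vehicle replicates. These were 197, 158 and 183 CPM in knockout and 139, 115 and 148 CPM in vehicle libraries. The groups again did not overlap, but the gap was narrow, with the lowest knockout library 1.07-fold above the highest vehicle library. Groups apart with knockout higher were found in 5.83% of all genes tested, so a gap of this kind is not rare. The means were 179.6 ± 20.05 CPM in knockout and 134 ± 17.2 CPM in vehicle (SD, n = 3 each). The log2 fold change was 0.42 (SE 0.18), a 1.34-fold difference, with an edgeR adjusted p of 0.664. The estimate stayed between 0.31 and 0.51 when a library was left out. Knockout replicate 2, the highest library for Sbk3, was the lowest knockout library for Sbk2 in CPM. On the FPKM scale, which carries no TMM factor, that library had 73.8, beside 74.2 and 80.4 in the other knockout libraries, and the vehicle libraries had 55.1, 46.3 and 58.5.

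Sbk1, which was not among the genes chosen, lay close to Sbk2 in the size of its difference. It was at 18.6, 24.7 and 20.6 CPM in knockout and at 18.7, 15.02 and 15.9 CPM in vehicle libraries, and the groups overlapped. Its log2 fold change was 0.37 (SE 0.18), with a 95% interval from -0.03 to 0.76 and an edgeR adjusted p of 0.687. Whether the 3 genes differed from one another in their response was not tested.

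**Figure D1:**
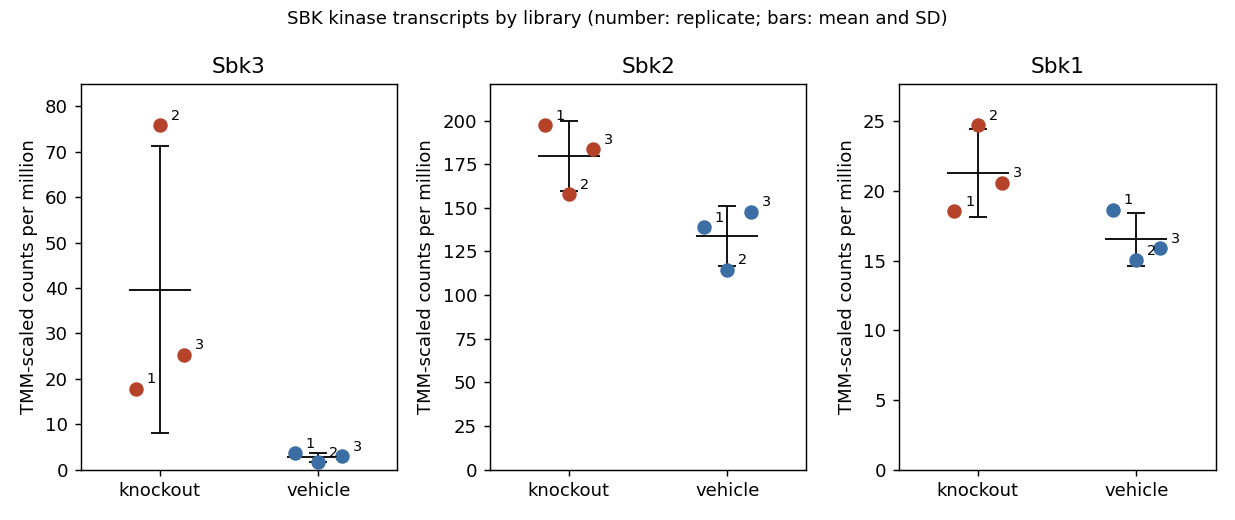
TMM-scaled CPM of Sbk3, Sbk2 and Sbk1 in each library, knockout left of vehicle; points are libraries numbered by replicate, and bars are the mean and SD of 3. Sbk3 spans 17.8 to 75.9 CPM in knockout and 1.67 to 3.59 in vehicle libraries, Sbk2 spans 158 to 197 CPM in knockout and 115 to 148 in vehicle libraries, and Sbk1 overlaps between groups.

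Per unit of gene length, Sbk2 was the main SBK transcript of this muscle. Its FPKM averaged 76.1 ± 3.74 in knockout and 53.3 ± 6.30 with vehicle (SD, n = 3 each). Sbk3 averaged 13.5 ± 11.8 FPKM in knockout and 0.832 ± 0.291 in vehicle libraries, and Sbk1 averaged 5.45 ± 1.36 in knockout and 3.91 ± 0.426 in vehicle libraries. In the vehicle libraries the order Sbk2, Sbk1, Sbk3 held in each library, with no overlap between the genes. In the knockout libraries Sbk3 was above Sbk1 in each library although their ranges overlapped, 5.08, 26.9 and 8.42 FPKM for Sbk3 beside 4.13, 6.85 and 5.35 for Sbk1. Sbk3 made up 6.09%, 25.02% and 8.93% of the summed FPKM of the 3 genes in knockout replicates 1, 2 and 3, against 1.78%, 1.02% and 1.43% in the vehicle replicates. Sbk2 exceeded Sbk3 by 14.6-fold, 2.74-fold and 9.56-fold in the knockout replicates, against 51.0-fold, 90.4-fold and 64.9-fold in the vehicle replicates. Sbk2 thus stayed ahead in every library, by a smaller factor in the knockout libraries. Of 23 kinases known from striated muscle, Sbk2 was above 18 by mean FPKM in the knockout group and above 17 in the vehicle group. In both groups the myosin kinases Mylk4 and Mylk2, the pyruvate dehydrogenase kinase Pdk4, the phosphorylase kinase subunit Phkg1 and titin had higher means. The calcium/calmodulin kinase Camk2a averaged 40.5 FPKM in knockout, below Sbk2, and 64.3 FPKM in vehicle, above it. Sbk3 was above 8 of the 23 in the knockout group and above 3, Mylk3, Hunk and Tnni3k, in the vehicle group.

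The genes also differed in how much they varied between libraries. The biological coefficient of variation, the spread between replicates that edgeR estimates for each gene, was 0.185 for Sbk2, at percentile 19.7 of all genes tested, and 0.180 for Sbk1. For Sbk3 it was 0.445, at percentile 90.2, and for Myh7 it was 0.7997, at percentile 99.7. Within the vehicle group, where the contrast plays no part, the highest CPM exceeded the lowest 2.15-fold for Sbk3, 1.29-fold for Sbk2 and 1.24-fold for Sbk1, beside 18.2-fold for Myh7. Within the knockout group the same ratio was 4.26 for Sbk3, 1.25 for Sbk2, 1.33 for Sbk1 and 3.63 for Myh7. Sbk3 was thus about as variable as Myh7 among knockout libraries and far less so among vehicle libraries.

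Myh7 had 163, 735 and 324 FPKM in the knockout replicates and 264, 30.3 and 14.4 FPKM in the vehicle replicates. Knockout replicate 1 therefore lay below vehicle replicate 1 in slow myosin RNA, and in Sbk3 the same 2 libraries were at 5.08 FPKM in knockout and 1.08 FPKM in vehicle. Among the knockout libraries Sbk3 ran beside Myh7, at 3.12, 3.66 and 2.599 units of Sbk3 FPKM per 100 of Myh7. Among the vehicle libraries the same ratio was 0.410, 1.69 and 6.25. Relative to Myh7 the groups overlapped, since vehicle replicate 3 had the highest ratio of all and vehicle replicate 1 the lowest. Sbk2 did not follow Myh7 in this way. Its FPKM per 100 of Myh7 was 45.5, 10.0 and 24.8 in knockout and 20.9, 153 and 405 in vehicle libraries, and these groups overlapped too. In the knockout group the order of the libraries by Sbk2 CPM, replicate 1, then 3, then 2, was the reverse of their order by Myh7. On the FPKM scale it was not, since replicate 3 was then the highest for Sbk2.

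**Figure D2:**
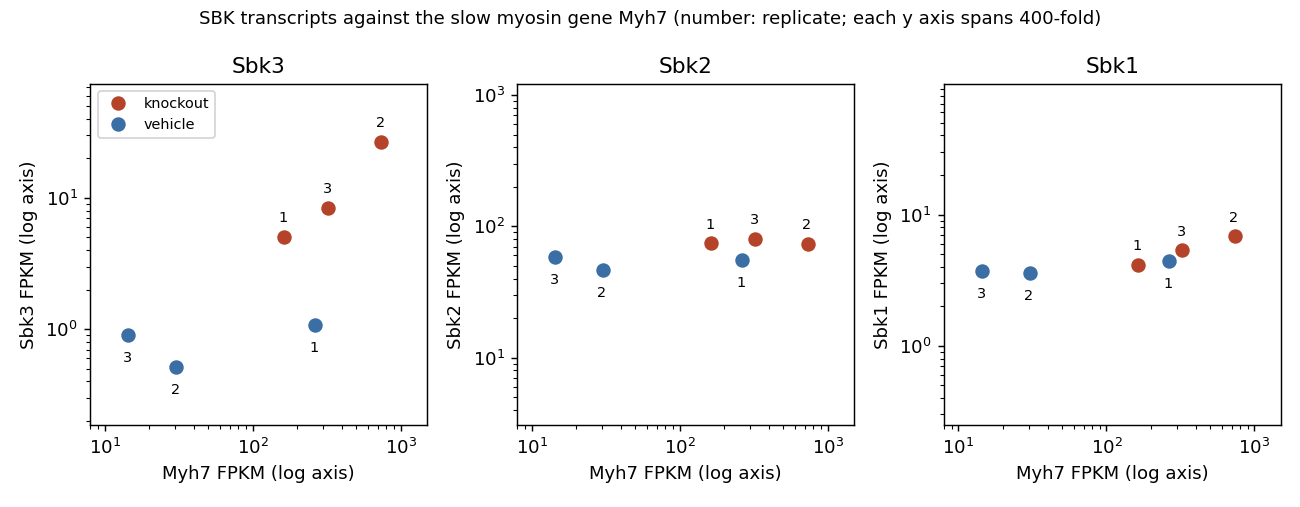
FPKM of Sbk3, Sbk2 and Sbk1 (y) against FPKM of Myh7 (x), both on log axes and each y axis spanning the same factor; points are libraries, numbered by replicate. Knockout replicate 1 has less Myh7 (163) than vehicle replicate 1 (264) but more Sbk3 (5.08 in that knockout library, 1.08 in that vehicle library), while Sbk2 stays between 46.3 and 80.4 throughout.

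Fits that carried slow-fibre RNA as a covariate gave smaller estimates for Sbk3 and about the same for Sbk2. With log2 CPM of Myh7 in the edgeR model the log2 fold change was 2.89 (SE 0.81) for Sbk3, 0.49 (SE 0.26) for Sbk2 and 0.12 (SE 0.23) for Sbk1. With the mean of the 15 slow-twitch genes in the model it was 2.56 (SE 0.55), 0.49 (SE 0.23) and 0.10 (SE 0.21). Neither fit called any gene over the whole table, and the edgeR adjusted p of each SBK gene was 1.00. Each fit estimated 1 more term from the same 6 libraries.

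Over the 6 libraries, Pearson's r of log2 CPM with Myh7 was 0.80 for Sbk3 (Spearman's rho 0.89) and 0.49 for Sbk2 (rho 0.37). For Sbk1 it was 0.91 (rho 0.94), the highest of the 3, and at least 0.88 whichever library was left out. These are descriptions, since Sbk3 falls into separate ranges in the 2 groups and 3 libraries are too few to test the relation within either. The r of Sbk3 with Myh7 was 0.95 without vehicle replicate 1. Without the 2 libraries farthest from the Myh7 median, vehicle replicates 2 and 3, it was 0.62 for Sbk3 and -0.45 for Sbk2, so for Sbk2 the sign rested on them. Over the 15 slow-twitch genes the median r was 0.83 with Sbk3 (range 0.61 to 0.89) and 0.45 with Sbk2 (range 0.08 to 0.50). The median over the 11374 named genes with a mean of at least 1 CPM was near 0 for both. The slow genes most like Sbk3 were the calsequestrin Casq2 (r = 0.89), which binds calcium in the sarcoplasmic reticulum, and the Z-disc protein Myoz2 (r = 0.88). Sbk1 was nearer still (r = 0.93), and Sbk2 stood at r = 0.71 with Sbk3. All 15 slow-twitch genes had higher estimates in knockout and none passed. Their median on the log2 scale was 1.82, against 0.02 over all genes tested, of which 52.9% were higher. None of the 15 separated the groups, beside 12.3% of all genes tested that did (5.83% with knockout higher).

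**Figure D3:**
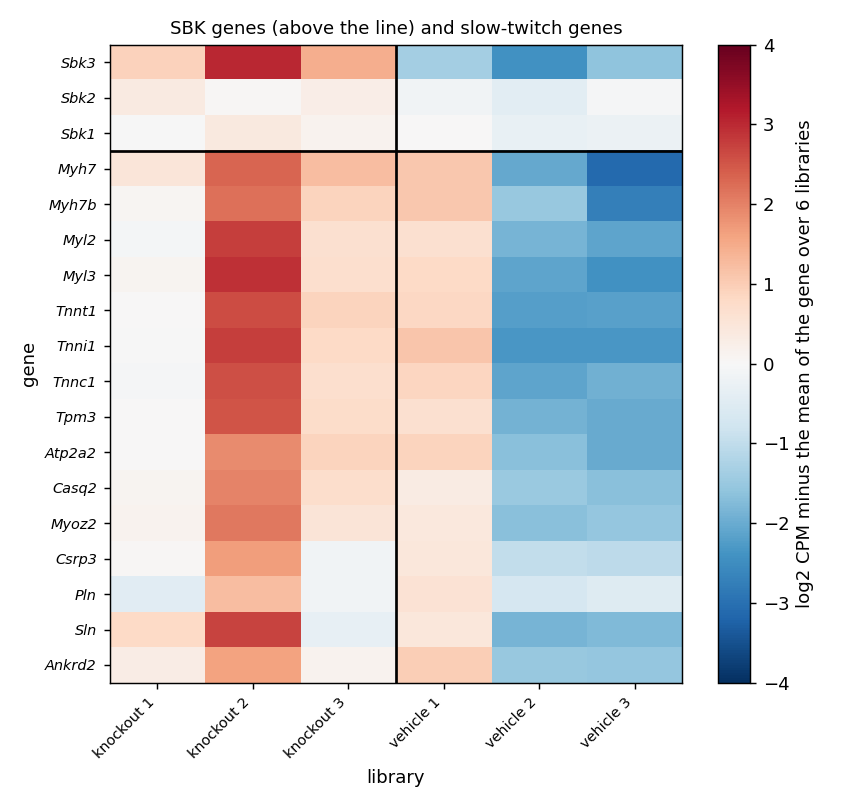
Log2 CPM minus the mean of each gene over the 6 libraries, with SBK genes above the line, the 15 slow-twitch genes below it and knockout libraries on the left. Slow-twitch genes are on average high in knockout replicate 2 and above their mean in vehicle replicate 1, where Sbk3 is 1.36 below its mean; Sbk2 stays within 0.43 of its mean in all libraries.

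None of the slow-twitch genes was among those nearest in pattern to either kinase. For Sbk3 the 5 of highest r over the 6 libraries were Tmem132a (r = 0.98), a transmembrane protein, the chromatin remodelling subunit Smarcd2, the T-box factor Tbx18, the Wnt pathway factor Tcf7l1 and the mitochondrial poly(A) polymerase Mtpap. The lowest were Klhl30 (r = -0.998), a kelch-like protein, Nabp1, a single-stranded DNA binding protein, and Oser1, a gene named for its response to oxidative stress. Klhl30 was at 59.6, 40.9 and 56.0 CPM in knockout, against 86.8, 99.4 and 89.5 CPM in vehicle libraries, in exactly the reverse order of Sbk3. On the log2 scale Klhl30 was at -0.82 (SE 0.18; edgeR adjusted p = 0.440). Tmem132a, in the same order as Sbk3, was at 3.69, 6.11 and 4.46 CPM in knockout and 2.11, 1.37 and 1.43 CPM in vehicle libraries. For Sbk2 the 5 highest were the ankyrin repeat protein Ankrd46 (r = 0.98), the leucine-rich repeat membrane protein Lrtm2, Pnmt, which converts noradrenaline to adrenaline, Bnip2 and Nckipsd, an SH3 adaptor. The lowest were Tmem170, the histone methyltransferase Suv39h1 and Gstcd. Lrtm2 was at 3.52, 1.45 and 4.01 CPM in knockout and 0.99, 0.47 and 1.20 CPM in vehicle libraries, and Pnmt at 5.90, 4.11 and 5.74 CPM in knockout and 2.32, 1.84 and 2.504 CPM in vehicle libraries. Both share the low value of Sbk2 in vehicle replicate 2 and in knockout replicate 2. Both had larger differences than Sbk2, at 1.75 (SE 0.48) and 1.24 (SE 0.27) on the log2 scale, and did not pass (edgeR adjusted p = 0.553 and 0.412). Because the libraries of Sbk3 and Sbk2 were already apart between the groups, any gene apart in the same way ranks high here.

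Along the chromosome, the 4 named genes on each side had smaller estimates than Sbk3, and none passed the threshold. Zfp579, a zinc finger gene and the first on the Sbk3 side, was at 3.84, 6.60 and 4.03 CPM in knockout and 3.19, 1.62 and 3.34 CPM in vehicle libraries, and the groups did not overlap. Its log2 fold change was 0.83 (SE 0.35; edgeR adjusted p = 0.664). As in Sbk3, knockout replicate 2 was highest and vehicle replicate 2 lowest. The same held for Isoc2a, the farthest of the 4 on the Sbk2 side, at 38.6 and 23.6 CPM in those libraries. Ssc5d, a secreted scavenger receptor protein and the first gene on the Sbk2 side, was at 0.28 (SE 0.40) and its groups overlapped. The other 6 were between -0.17 for Zfp628 and 0.37 for Nat14, and among them only Isoc2a had groups that did not overlap. With Zfp579 this made 2 of 8, both higher in knockout, beside 12.3% of all genes tested in either direction and 5.83% with knockout higher. Whether Sbk3 differed from its neighbours in response was not tested.

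**Figure D4:**
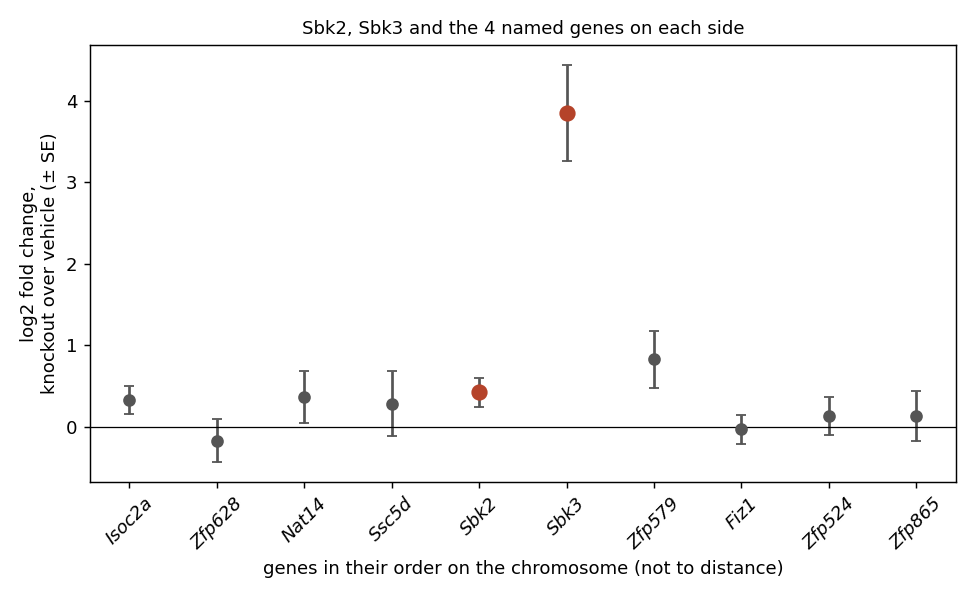
Log2 fold change of knockout over vehicle with its SE for Sbk2 and Sbk3 (red) and the 4 named genes on each side (grey), in chromosomal order and not to distance. Sbk3 is at 3.85, Sbk2 at 0.42 and the others between -0.17 and 0.83.

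Because Sbk2 is known from atrial muscle, markers of heart muscle were read beside both genes. The atrial list held 14 genes, of which Nppa, Nppb, Bmp10 and Nkx2-5 had no read in any library, and the atrial light chain Myl7 and the factor Tbx5 had at most 1 read in a library. The list's sum ran from 74.8 to 339 FPKM in knockout and from 24.4 to 87.6 FPKM in vehicle libraries. Sln, Myh6 and Myl4, which developing or slow skeletal fibres also express, made up part of it. In knockout replicate 2, with the highest sum, Sln was at 208 and Myh6 at 108 FPKM. In vehicle replicate 2, with the lowest sum, they were at 7.55 and 3.24 FPKM. The list of ventricular and general heart genes held 9, several of them shared with skeletal fibres, and summed to 3978 to 8594 FPKM in knockout and 2657 to 4521 FPKM in vehicle libraries. In it the myosin binding protein Mybpc3 had at most 3 reads in a library and the cardiac troponin Tnni3 at most 19. Other members were well above 0 in every library, among them the atrial-list genes Stard10 with 589 to 1120 reads and Kcna5 with 231 to 363, the troponin Tnnt2 with 119 to 222 and the cardiac actin Actc1 with 2025 to 28546. The part of such transcripts in the Sbk2 values was not tested. Of the atrial genes 7 passed the filter, 4 higher and 3 lower in estimate, and of the general heart genes 7 passed it, 6 higher and 1 lower.

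Among the 22 measured kinases of the striated muscle list, 8 had a higher and 14 a lower estimate in knockout, and none passed. Their median was -0.07 on the log2 scale. The 3 of smallest p were the fast-fibre myosin kinase Mylk2 at -0.84 (SE 0.28), the pseudokinase Trib1 at -0.70 (SE 0.28) and the cardiac-type myosin kinase Mylk3 at 1.79 (SE 0.74), with edgeR adjusted p values of 0.628, 0.645 and 0.651. Of 17 fast-twitch genes 2 had a higher and 15 a lower estimate, with a median of -0.35, and none passed.

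Markers of other cells also differed between libraries. The macrophage list, in which 8 of 9 genes had a higher estimate, summed to 28.4, 110 and 92.3 FPKM in the knockout replicates and 41.6, 33.7 and 25.2 FPKM in the vehicle replicates. The adipocyte list, with 7 of 7 higher, summed to 222, 338 and 97.5 FPKM in knockout and 111, 94.6 and 62.3 FPKM in vehicle libraries. Knockout replicate 2 was highest in the summed FPKM of slow-fibre, macrophage, adipocyte, fibroblast and red blood cell markers as well as in Sbk3. It was the lowest in the summed fast-twitch genes. By mean log2 CPM with TMM factors, less each gene's own mean, it was still highest in slow-fibre, adipocyte and fibroblast markers. On that scale knockout replicate 3 was highest in macrophage markers, at 1.03 against 0.92 for knockout replicate 2. In red blood cell markers vehicle replicate 2 was then highest, at 1.63 against 1.13. Knockout replicate 1 lay within the vehicle range in macrophage markers and knockout replicate 3 within it in adipocyte markers. Fibroblast genes, 6 of 6 higher in estimate, summed to 159 to 470 FPKM in knockout and 200.3 to 251.2 FPKM in vehicle libraries. Smooth muscle genes, 4 of 5 lower, summed to 84.9 to 101 FPKM in knockout and 105 to 139 FPKM in vehicle libraries, which did not overlap. Of these 5 genes, 3 had groups that did not overlap, beside 12.3% of all genes tested in either direction. Endothelial genes, 5 of 7 higher, summed to 40.9 to 54.1 FPKM in knockout and 33.4 to 48.1 in vehicle, nerve and Schwann cell genes, 6 of 7 lower, to 22.9 to 43.9 in knockout and 33.5 to 61.5 in vehicle, and red blood cell genes, 3 of 5 lower, to 719 to 4608 in knockout and 746 to 4508 in vehicle. No gene of these lists passed the adjusted threshold. The part of these cells in the SBK values was not tested.

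Across 19 alternative fits the estimate kept its sign for Sbk3, Sbk2 and Sbk1. All of these fits reused the same libraries. Leaving a library out could not reverse the sign for Sbk3 or Sbk2, whose groups did not overlap, so the kept sign adds no support. An adjusted threshold of 0.05 was passed in 0 of the fits for Sbk2 and Sbk1 and in 3 for Sbk3. Those 3 were DESeq2 and the edgeR fits without knockout replicate 1 or without knockout replicate 2.

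**Figure D5:**
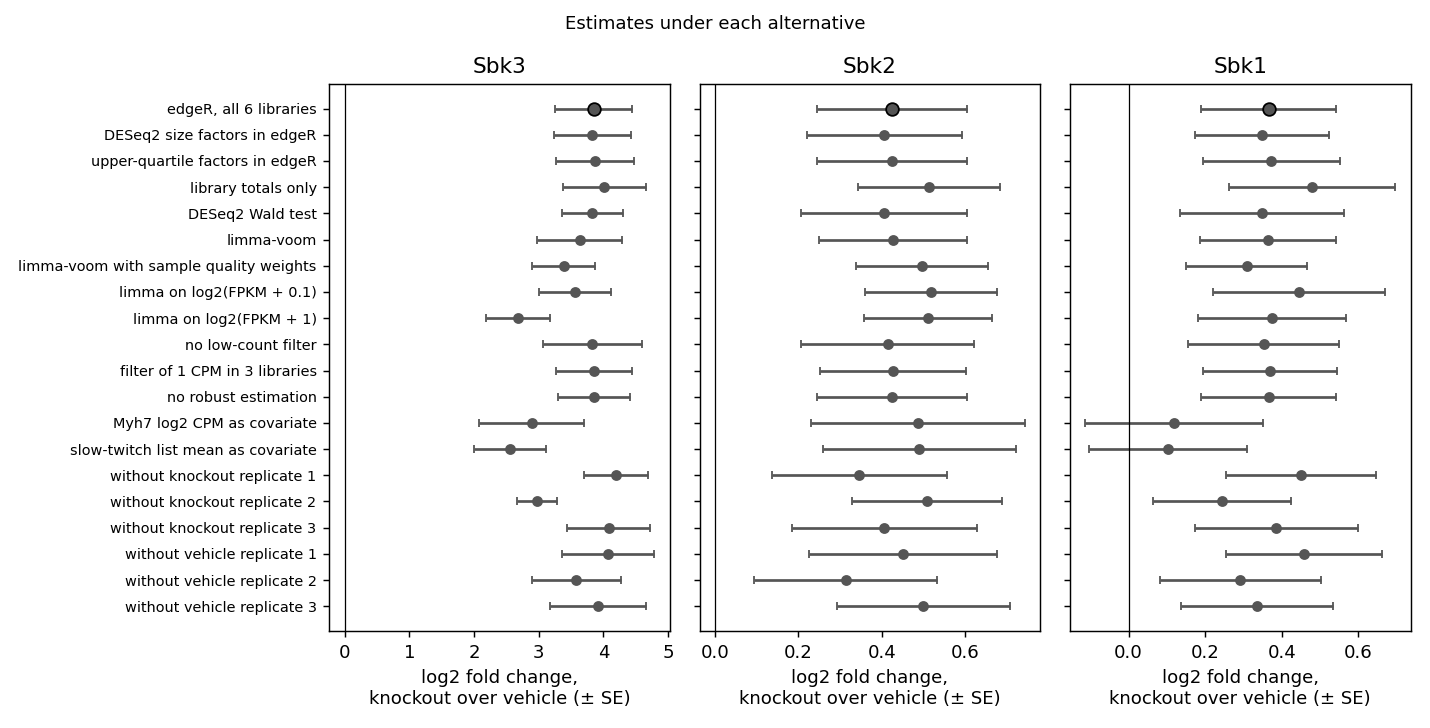
Log2 fold change of knockout over vehicle with its SE for Sbk3, Sbk2 and Sbk1 under the edgeR fit of all 6 libraries (top, black) and each alternative, with a separate x axis for each gene. Sbk3 lies between 2.56 and 4.19, Sbk2 between 0.31 and 0.52, and Sbk1 between 0.10 and 0.48.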

How the data were processed

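Polyadenylated RNA (TruSeq Stranded mRNA) was sequenced from gastrocnemius in 6 libraries, 3 per group, grouped by the phenotype in the labels. Replicate numbers are only names. The authors deposited 1 table with a read count and an FPKM value per gene and library. The build mm10 and the tools STAR 2.6.1c, featureCounts, Subread 1.5.1 and bcl2fastq are named in the submitters' processing notes. The sources used here do not give the annotation release or the strand setting. The deposited FPKM equalled the count divided by the library total and by the listed length plus 1 base, up to a constant, so they carry no scaling beyond the library total.

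Counts were fitted in R 4.3.3 with edgeR 4.0.16 (filterByExpr with minimum count 10 and minimum total 15, TMM, robust quasi-likelihood, two-sided), with Benjamini-Hochberg adjustment over 15583 genes at 0.05. Scripts were tested on simulated data. Alternatives used DESeq2 1.42.0, limma 3.58.1 (with pseudocounts of 0.1 and 1 on FPKM), other scalings and filters, covariates, and each library left out. A count of 3, taken as the floor, was 0.0752 to 0.0984 CPM, and the lowest Sbk count was 61.

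The members and gene lists were chosen with earlier results of these data known. Genes named were the SBK genes, Myh7, Vdr, the 5 of highest and 3 of lowest r with each kinase, 4 neighbours on each side and up to 3 members of smallest p per list; heart markers, list kinases compared in level, Casq2 and Myoz2 as the slow genes of highest r were named after their values were seen. r used log2 CPM with prior count 2. Coding sequences were aligned with Biopython 1.88. A planned comparison of protein sequences was replaced by coding bases, as no protein sequence was used here. Promoter sequences are from RefSeq (GRCm38.p6), which held Sbk2 and Sbk3. The motif window was shortened to the 250 bases before the RefSeq start after matches in a longer window, which reached past that start, had been seen. In that longer window Sbk3 had a further E-box.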

Additional observations from a re-analysis of the deposited data

How the results depend on the processing

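No paired analysis was possible because the labels give no replicate numbers shared between the groups. Sbk3 passed the adjusted threshold with the DESeq2 Wald test, at a log2 fold change of 3.83, and its estimate ran from 2.97 to 4.19 when a library was left out. Leave-one-out ranges were 0.31 to 0.51 for Sbk2, 0.24 to 0.46 for Sbk1 and 1.18 to 4.03 for Myh7, which was highest without vehicle replicate 1 and lowest without knockout replicate 2. The r with Myh7 ran from 0.70 (without knockout replicate 2) to 0.95 (without vehicle replicate 1) for Sbk3 and from 0.23 (without vehicle replicate 2) to 0.60 for Sbk2. Limma on log2(FPKM + 1) gave 2.69 for Sbk3, where the pseudocount is of the order of the vehicle values. The count of called genes was 0 in edgeR, 4 with DESeq2 size factors, 109 with DESeq2, 4 with limma-voom and sample quality weights, 29 without a low-count filter and 0 to 24 when a library was left out, with 24 without knockout replicate 1 and 6 without knockout replicate 2. The cause of these shifts was not tested. With 3 libraries per group the intervals of Sbk2 and Sbk1 are wide beside their estimates. At 61 to 116 reads, vehicle Sbk3 values carry counting error of their own.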
